A study of Mus musculus with 20 samples.

Results

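The 33 genes described here are interferon-stimulated genes, taken by name from the 49315 genes of a liver RNA sequencing table. They comprise 4 sensors of foreign RNA and DNA, 4 transcription factors of the pathway, the ubiquitin-like modifier Isg15 with its protease, and 23 effectors and modulators. All mice had steatohepatitis with obesity brought on by diet (the DIO-NASH model) and were fed the AMLN diet, which is rich in fat, fructose and cholesterol. One group of 10 mice was dosed orally each day with S217879 (30 mg/kg), and the other group of 10 mice received only the vehicle, hydroxyethylcellulose (HEC 1%), both for 8 weeks. The series title names S217879 as a disruptor of the binding of NRF2, a transcription factor of antioxidant defence, to its repressor KEAP1. The sources used here give no strain, sex or age of the mice, and there was no group on a normal diet. Each library came from 1 separately numbered animal. S217879 against vehicle is the comparison of the design.

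Interferons are cytokines released when cells sense foreign nucleic acid. Type I interferons bind the receptor pair Ifnar1 and Ifnar2, which signals through the kinases Jak1 and Tyk2 to Stat2. Stat2 and Irf9 are parts of a complex called ISGF3, which binds the interferon-stimulated response element (ISRE) in front of its target genes. Interferon gamma acts through its own receptor and another element, the gamma-activated sequence (GAS). In liver the genes are used by hepatocytes as well as by macrophages, endothelial cells and lymphocytes, and Usp18 closes the circle by blocking the type I receptor.

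Values are in TPM, which correct for gene length and sum to 1000000 in each library, so that read depth cannot be recovered from them. All 33 genes were among the 13401 genes that averaged 1 TPM or more, which were tested together with limma on log2(TPM + 0.5), and a gene was called at a Benjamini-Hochberg adjusted p under 0.05. Log2 differences below are S217879 minus vehicle on this scale, which understates the change of low genes. Alb, the main secreted protein of hepatocytes, averaged 29160 TPM in S217879 livers and 33780 TPM in vehicle livers, which fits the tissue label. A group of 4 short rRNA-type gene models took 14.1% to 38.1% of all TPM in S217879 libraries and 17.4% to 58.2% in vehicle libraries, the last in vehicle replicate 6, with 50.7% in vehicle replicate 7. The more these models take, the less is left for every other gene. Calls are therefore also given after median-of-ratios scaling, which sets one factor per library, while levels are as deposited unless stated. It moved the median log2 difference of all tested genes to -0.01, against -0.12 as deposited, a shift of 0.11.

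Livers of S217879-treated mice had lower levels of 17 of the 33 interferon response genes and a higher level of 0. The called genes included the protease Usp18, the transcription factors Stat2 and Irf9, Isg15, and effectors such as Ifit2, Oas1a and Mx1. For Usp18 the log2 difference, taken on TPM + 0.5, corresponds to a ratio of 0.498 to vehicle. At an unadjusted p under 0.05 limma gave 23 lower and 0 higher. The share of all tested genes at that unadjusted cut was not counted, so these counts have no background beside them. The other 16 genes did not pass the adjusted test, among them Irf7, Irf1, Bst2, Oasl1 and Ifi35. The called share was 51.5%, and of all tested genes 23.5% were called lower and 6.07% higher. After median-of-ratios scaling 14 of the 33 were called lower, 42.4% against 27.1% of all genes, and 1 gene (Ifi35) was called higher, against 26.6% of all genes. In all, 13 genes were called lower on both scales and Ddx58 after scaling alone. Isg15, Gbp7, Trim30a and Xaf1 were lower as deposited alone. The share of all tested genes called lower on both scales was not counted. The log2 difference was below 0 for 30 of the 33 genes as deposited (68.1% of all genes) and for 29 after scaling (51.8% of all genes). The median over the 33 genes was -0.35, and -0.23 relative to the median of all tested genes. Single genes spanned -1.01 to 0.10, and 4 genes lay at -0.5 or below. As deposited, the lowest vehicle liver and the highest S217879 liver overlapped for all 33 genes, while 1.89% of all tested genes were lower without overlap.

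**Figure D1:**
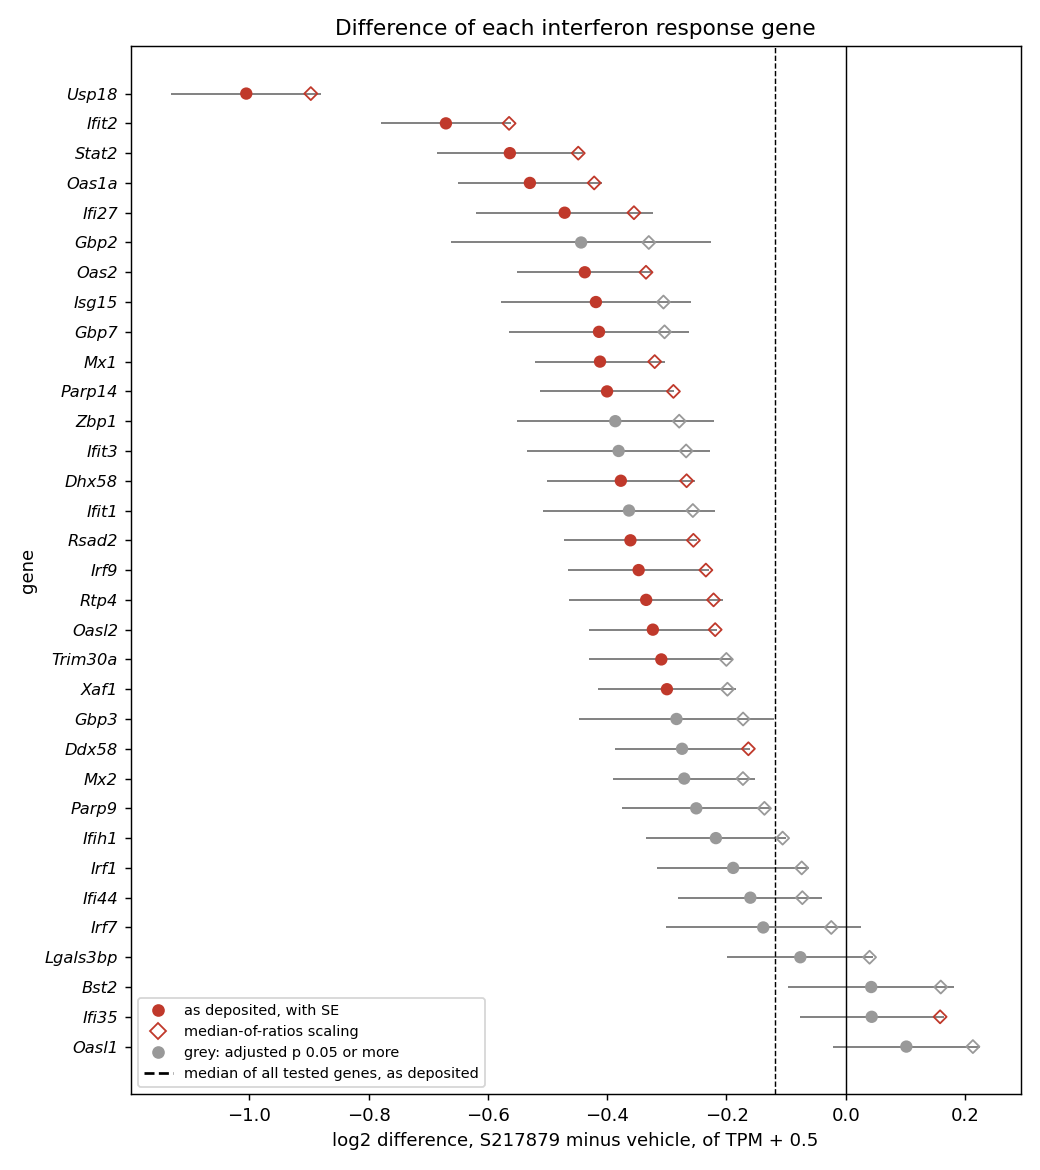
Log2 difference (S217879 minus vehicle, of TPM + 0.5) of each of the 33 genes, as filled circles with SE for the deposited values and as open diamonds after median-of-ratios scaling, red where adjusted p is under 0.05 and grey otherwise. Usp18 lies farthest to the left at -1.01, Oasl1 farthest to the right at 0.10, and the dashed line marks the median of all tested genes at -0.12.

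**Figure D2:**
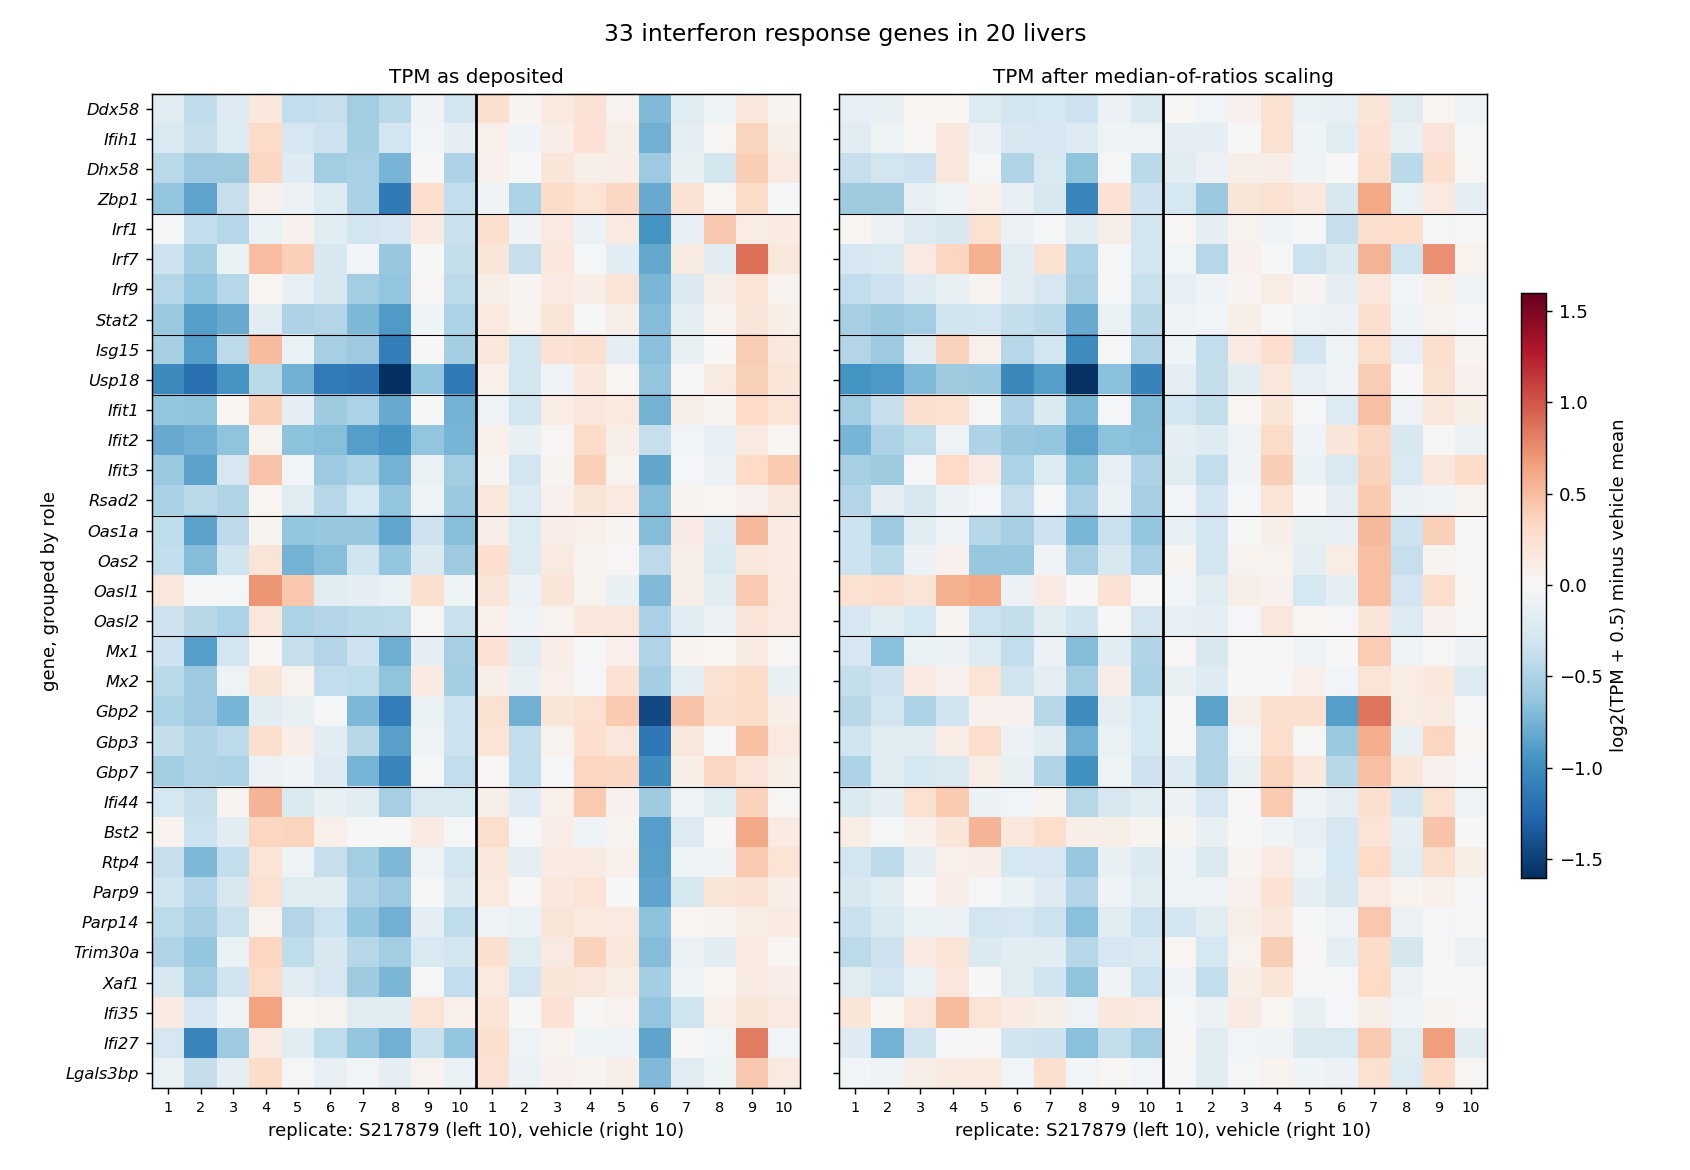
Level of each gene in each liver as log2(TPM + 0.5) minus the vehicle mean, S217879 replicates left and vehicle replicates right in each panel, as deposited and after median-of-ratios scaling. As deposited, vehicle replicate 6 is blue in all 33 genes, and S217879 replicate 4 is above the vehicle mean in 28, while Usp18 is below it in each S217879 liver in both panels.

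RefSeq promoter windows of 300 bases (250 before to 50 after the start, build GRCm38.p6) were found for 23 of the 33 genes; Dhx58, Zbp1, Usp18, Oas2, Mx1, Mx2, Rtp4, Parp9, Parp14 and Ifi27 were without one. The ISRE core, GAAA followed by any 2 bases and GAAA again, searched on both strands (on the other strand TTTC, 2 bases, TTTC), occurred in 13 of the 23 genes, 56.5%, against 3.99% of the 27025 genes with a window and 3.44% of all 32851 windows. The GAS core TTCNNNGAA, which reads the same on both strands, occurred in 6 of the 23 genes, 26.1%, against 9.55% of all genes and 8.3% of all windows. Of the 13 genes with the ISRE core 6 were called lower (median log2 difference -0.36), and of the 10 without it 4 were (median -0.17). This split leaves out the genes without a window. Of those, Dhx58, Usp18, Oas2, Mx1, Rtp4, Parp14 and Ifi27 were called lower, and Zbp1, Mx2 and Parp9 were not. A match is a description of letters and not a binding site, and an element outside the windows or with other letters would be missed. The windows below show genes called lower with the core near or far from the start (Stat2, Oas1a, Isg15). They also show one that was not called and holds it (Bst2), and one that fell without a match in either of its 2 windows (Ifit2). They are written 5′ to 3′ along the gene's strand, with the ISRE core letters in capitals. Stat2 lies at chr10:128270248-128270547 on the plus strand, Oas1a at chr5:120907476-120907775 on the minus strand, Isg15 at chr4:156200769-156201068 on the minus strand, Bst2 at chr8:71537423-71537722 on the minus strand and Ifit2, the first of 2 windows, at chr19:34550444-34550743 on the plus strand.
Stat2: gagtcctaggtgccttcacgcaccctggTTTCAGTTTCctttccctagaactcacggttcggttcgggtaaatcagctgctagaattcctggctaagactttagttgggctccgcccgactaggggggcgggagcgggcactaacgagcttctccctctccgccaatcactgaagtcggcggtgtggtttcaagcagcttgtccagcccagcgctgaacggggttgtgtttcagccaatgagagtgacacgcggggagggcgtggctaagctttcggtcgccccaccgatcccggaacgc
Oas1a: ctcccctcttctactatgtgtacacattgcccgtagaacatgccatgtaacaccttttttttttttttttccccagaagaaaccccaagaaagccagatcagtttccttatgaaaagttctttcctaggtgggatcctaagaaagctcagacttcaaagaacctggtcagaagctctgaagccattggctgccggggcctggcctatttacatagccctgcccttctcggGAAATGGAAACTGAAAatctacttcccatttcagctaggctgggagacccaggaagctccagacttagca
Isg15: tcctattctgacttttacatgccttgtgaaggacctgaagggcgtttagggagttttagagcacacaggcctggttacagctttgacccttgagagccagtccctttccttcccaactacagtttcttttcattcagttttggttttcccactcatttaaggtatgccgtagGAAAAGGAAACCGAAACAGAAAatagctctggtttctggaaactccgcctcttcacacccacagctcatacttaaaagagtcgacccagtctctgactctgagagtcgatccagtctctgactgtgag
Bst2: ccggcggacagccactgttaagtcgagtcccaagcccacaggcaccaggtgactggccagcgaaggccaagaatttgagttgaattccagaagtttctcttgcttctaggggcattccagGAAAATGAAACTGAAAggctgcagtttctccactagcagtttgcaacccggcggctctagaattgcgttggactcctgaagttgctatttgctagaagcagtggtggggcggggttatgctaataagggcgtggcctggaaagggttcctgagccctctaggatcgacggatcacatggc
Ifit2: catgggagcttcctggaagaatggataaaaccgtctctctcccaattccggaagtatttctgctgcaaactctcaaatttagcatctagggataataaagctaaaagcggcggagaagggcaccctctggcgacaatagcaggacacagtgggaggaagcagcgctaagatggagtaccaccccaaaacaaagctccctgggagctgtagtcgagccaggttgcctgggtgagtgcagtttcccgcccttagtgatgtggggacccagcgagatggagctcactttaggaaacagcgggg
In Isg15 3 overlapping cores form one run, in Oas1a and Bst2 2 overlapping cores do, and in Stat2 a single core lies on the other strand. The run in Bst2 also overlaps a GAS core, and Oas1a and this window of Ifit2 hold a GAS core elsewhere.

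Among the sensors, Dhx58 fell and Ddx58, Ifih1 and Zbp1 did not pass the test as deposited. Dhx58 encodes LGP2, a helicase that tunes the other RNA sensors. It lay between 5.94 and 13.04 TPM (median 7.12) in S217879 livers and between 6.72 and 13.7 TPM (median 10.9) in vehicle livers. In 9 of 10 S217879 livers Dhx58 was below the vehicle median, and the groups overlapped over most of their ranges. Its log2 difference was -0.38 (SE 0.12, adjusted p = 0.0181), and -0.27 after scaling (adjusted p = 0.0238). Ddx58, which encodes the RNA sensor RIG-I, averaged 8.36 ± 1.37 TPM in S217879 livers and 10.3 ± 1.82 TPM in vehicle livers (SD, n = 10 each). Its log2 difference of -0.27 missed the threshold as deposited (adjusted p = 0.0626), and the -0.16 after scaling passed it (adjusted p = 0.0245). Ifih1, the sensor MDA5 of long double-stranded RNA, averaged 9.88 ± 1.78 TPM in S217879 livers and 11.7 ± 2.18 TPM in vehicle livers (log2 difference -0.22, adjusted p = 0.162). Zbp1, a sensor of left-handed nucleic acid that can start cell death, averaged 5.33 ± 1.66 TPM in S217879 livers and 7.06 ± 1.72 TPM in vehicle livers (log2 difference -0.39, adjusted p = 0.0813). After scaling neither Ifih1 (-0.11, adjusted p = 0.178) nor Zbp1 (-0.28, adjusted p = 0.123) passed.

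Of the transcription factors, Stat2 and Irf9, both parts of the ISGF3 complex, fell, and Irf1 and Irf7 did not pass the test. Stat2 (chr10:128270559-128292849, plus strand) lay between 18.9 and 34.4 TPM (median 24.4) in S217879 livers and between 22.1 and 41.4 TPM (median 37.9) in vehicle livers. All 10 S217879 livers were below the vehicle median, and the overlap came from vehicle replicates 6 and 7 and from the upper S217879 livers. The log2 difference was -0.56 (SE 0.12, adjusted p = 4.33e-04). After median-of-ratios scaling the groups no longer overlapped for Stat2, with 19.5 to 32.20 in S217879 livers and 32.22 to 41.3 in vehicle livers, a gap far smaller than the spread within either group. Irf9, the DNA-binding part of the complex, lay between 8.87 and 14.4 TPM (median 10.3) in S217879 livers and between 8.29 and 16.4 TPM (median 15.1) in vehicle livers. Again all 10 S217879 livers were below the vehicle median, with a log2 difference of -0.35 (SE 0.12, adjusted p = 0.0226), and -0.23 after scaling (adjusted p = 0.00389). Without S217879 replicate 8 the adjusted p of Irf9 was 0.0504. Irf9 shares exon sequence with Rnf31 on the same strand, so part of its value may belong to that gene. The same holds for Gbp7 with Gm43802, Rtp4 with Gm45338 and Parp14 with Gm49730, whose values are given below.

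Irf7, the factor that amplifies interferon production, lay between 14.2 and 30.9 TPM (median 19.2) in S217879 livers and between 12.1 and 40.4 TPM (median 22.8) in vehicle livers. The groups covered much the same range, and the log2 difference was -0.14 (adjusted p = 0.564), and -0.02 after scaling (adjusted p = 0.904). Irf7 overlaps exons of Phrf1 on the other strand. Irf1, induced mainly by interferon gamma, averaged 21.7 ± 3.12 TPM in S217879 livers and 25.2 ± 5.52 TPM in vehicle livers (SD, n = 10 each). Its log2 difference was -0.19 (adjusted p = 0.275), -0.07 after scaling (adjusted p = 0.427) and -0.29 without vehicle replicate 6 (adjusted p = 0.0104).

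Isg15 and its protease both fell, and Usp18 had the lowest log2 difference of the 33 genes. Usp18 (chr6:121245906-121270917, plus strand) removes Isg15 from proteins and also blocks signalling at the type I interferon receptor. It lay between 2.84 and 7.38 TPM (median 4.58) in S217879 livers and between 6.39 and 13.4 TPM (median 10.6) in vehicle livers. Of the S217879 livers 9 were below every vehicle liver, and only replicate 4 reached into the vehicle range, above vehicle replicate 6. Means were 4.94 ± 1.28 TPM in S217879 livers and 10.3 ± 1.95 TPM in vehicle livers (SD, n = 10 each), a log2 difference of -1.01 (SE 0.13, adjusted p = 4.34e-08). Among all 13401 tested genes this difference held rank 208, counted from the lowest. After median-of-ratios scaling Usp18 was 2.93 to 6.396 in S217879 livers and 7.33 to 12.99 in vehicle livers, without overlap, as for Stat2 and none of the other 31 genes. On that scale 5.04% of all tested genes were lower without overlap. Over 34 alternative settings the adjusted p of Usp18 stayed between 3.80e-17 and 4.51e-04. An exon of Gm44148 overlaps Usp18 on the other strand.

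Isg15, the ubiquitin-like protein that interferons attach to other proteins, lay between 9.48 and 30.2 TPM (median 14.4) in S217879 livers and between 13.1 and 27.9 TPM (median 22.5) in vehicle livers. The highest of all 20 livers was S217879 replicate 4, while 9 S217879 livers were below the vehicle median. The log2 difference was -0.42 (SE 0.16, adjusted p = 0.0465), and -0.31 after scaling (adjusted p = 0.0628). The Isg15 call held without S217879 replicates 4, 5 or 9 or vehicle replicates 2 or 6, and was lost without any one of the other 15 libraries, with adjusted p from 0.0531 to 0.0858.

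**Figure D3:**
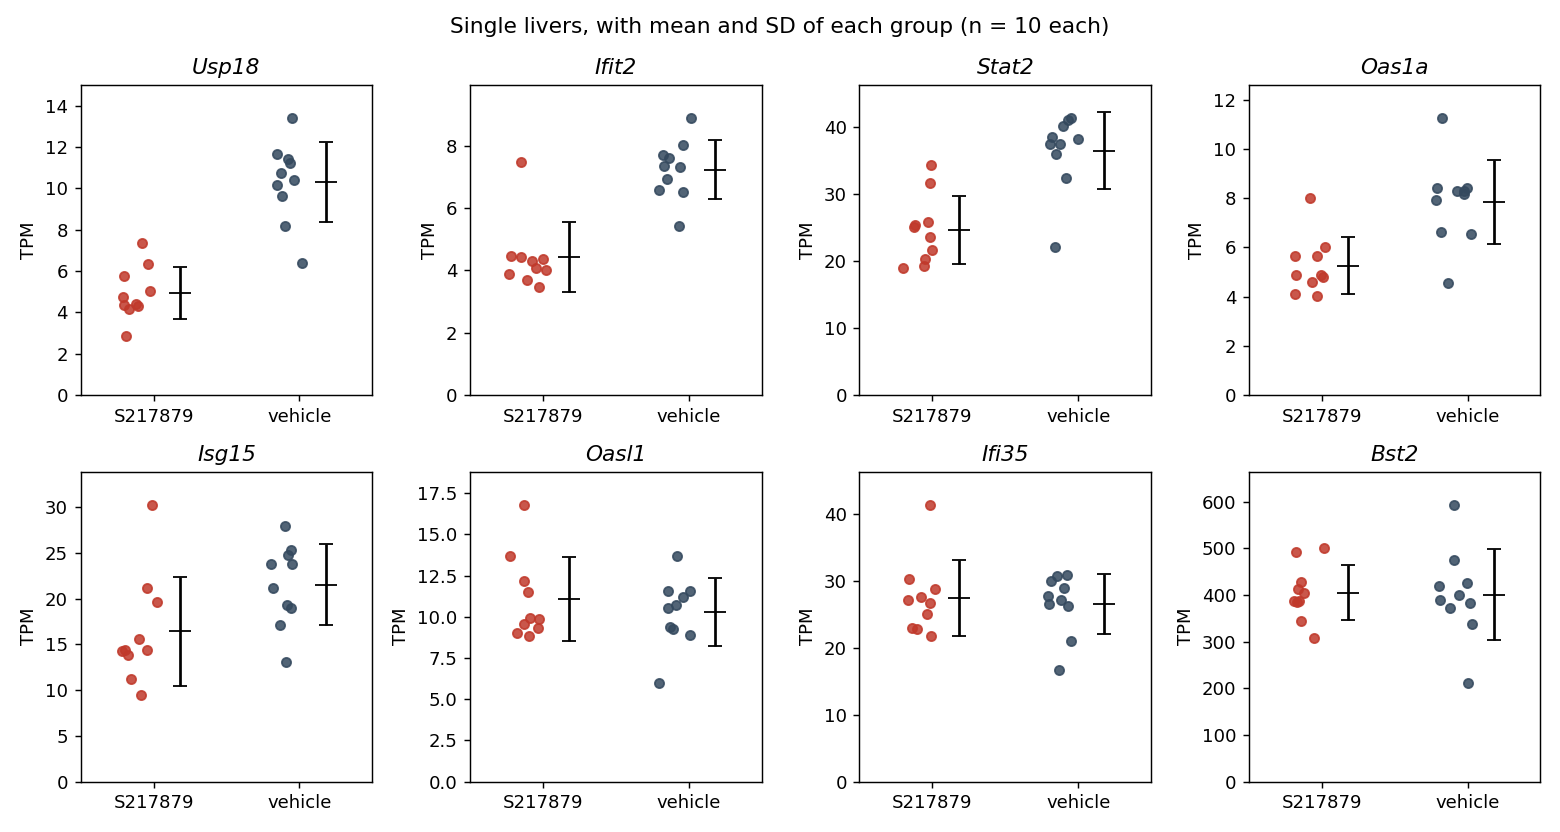
TPM of 8 genes in each liver, S217879 in red and vehicle in dark blue, with mean and SD of each group (n = 10 each). For Usp18, Stat2 and Oas1a all 10 S217879 livers are below the vehicle median, and for Ifit2 9 are; Isg15 overlaps more, and Oasl1, Ifi35 and Bst2 cover similar ranges in both groups.

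Of the Ifit genes, whose products bind foreign RNA and hold back its translation, Ifit2 fell and Ifit1 and Ifit3 did not pass the test as deposited. Ifit2 (chr19:34550694-34576419, plus strand) lay between 3.48 and 7.48 TPM (median 4.19) in S217879 livers and between 5.43 and 8.89 TPM (median 7.33) in vehicle livers. In S217879 livers 9 of 10 values were at or below 4.47 TPM, under every vehicle liver, and only replicate 4 stood among the vehicle values. Its log2 difference was -0.67 (SE 0.11, adjusted p = 6.57e-06), and -0.56 after scaling. Ifit3 lay between 9.64 and 24.8 TPM (median 12.3) in S217879 livers and between 9.83 and 24.1 TPM (median 18.5) in vehicle livers, with a log2 difference of -0.38 (adjusted p = 0.0599). Ifit1 lay between 3.34 and 8.24 TPM (median 4.15) in S217879 livers and between 3.47 and 7.89 TPM (median 6.77) in vehicle livers, with a log2 difference of -0.36 (adjusted p = 0.055). For both genes the lowest and highest values of the groups nearly coincided, although 9 of 10 S217879 livers were below the vehicle median. Each passed the test without any one of 5 libraries: S217879 replicates 4 or 9 or vehicle replicates 2 or 6 for both, S217879 replicate 3 for Ifit1 (adjusted p 0.00722 to 0.0442) and S217879 replicate 5 for Ifit3 (0.00595 to 0.0486). Whether Ifit2 differed more than its neighbours on chromosome 19 was not tested, and reads shared with the near copies Ifit1bl1 and Ifit3b could be split between genes. Rsad2 encodes viperin, an enzyme that makes a chain-terminating nucleotide. It averaged 3.76 ± 0.68 TPM in S217879 livers and 4.99 ± 0.87 TPM in vehicle livers (SD, n = 10 each; log2 difference -0.36, SE 0.11, adjusted p = 0.0116), and all 10 S217879 livers were below the vehicle median. After scaling Rsad2 was still called (adjusted p = 0.0162), and Ifit1 (0.111) and Ifit3 (0.0899) were not.

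The oligoadenylate synthetase family makes a messenger that activates the RNA-cutting enzyme RNase L. Oas1a, Oas2 and Oasl2 fell, while Oasl1 did not pass the test. Oas1a (chr5:120896256-120907521, minus strand) lay between 4.03 and 7.99 TPM (median 4.87) in S217879 livers and between 4.57 and 11.3 TPM (median 8.22) in vehicle livers. Every S217879 liver was below the vehicle median, and the log2 difference was -0.53 (SE 0.12, adjusted p = 7.72e-04). Reads of Oas1a may be shared with the near copies of the Oas1 group. Oas2 lay between 2.66 and 5.69 TPM (median 3.33) in S217879 livers and between 3.49 and 5.95 TPM (median 5.13) in vehicle livers, with 5 S217879 livers below every vehicle liver. Its log2 difference was -0.44 (SE 0.11, adjusted p = 0.00273). Oasl2 averaged 3.92 ± 0.79 TPM in S217879 livers and 5.02 ± 0.77 TPM in vehicle livers (log2 difference -0.32, adjusted p = 0.0194). After scaling Oas1a (adjusted p = 0.00145), Oas2 (0.00837) and Oasl2 (0.00520) were also called lower. Oasl1, which in mice restrains translation of Irf7 mRNA, lay between 8.86 and 16.8 TPM (median 9.88) in S217879 livers and between 5.97 and 13.7 TPM (median 10.6) in vehicle livers. Of the S217879 livers 6 were below and 4 above the vehicle median. The log2 difference of Oasl1 was 0.10 (SE 0.12, adjusted p = 0.576), and 0.21 after scaling (adjusted p = 0.0806); it turned to values between -0.045 and -0.025 in 3 alternatives that leave out or down-weight libraries or rescale without the rRNA-type genes.

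The 5 dynamin-like GTPases block virus entry and replication (Mx1, Mx2) or attack the vacuoles around intracellular microbes (Gbp2, Gbp3, Gbp7). Mx1 and Gbp7 fell. Mx1 lay between 1.05 and 2.41 TPM (median 1.75) in S217879 livers and between 1.55 and 2.85 TPM (median 2.46) in vehicle livers. The values are low, yet all 10 S217879 livers were below the vehicle median (log2 difference -0.41, SE 0.11, adjusted p = 0.00348), and Mx1 was also called after scaling (adjusted p = 0.00425). Mx2, which the annotation lists as a polymorphic pseudogene, averaged 2.32 ± 0.63 TPM in S217879 livers and 2.88 ± 0.54 TPM in vehicle livers (SD, n = 10 each; adjusted p = 0.0806). Gbp7 lay between 3.55 and 7.76 TPM (median 5.74) in S217879 livers and between 3.74 and 10.2 TPM (median 8.52) in vehicle livers. As deposited, vehicle replicate 6 was the lowest of its group in all 3 Gbp genes. The log2 difference of Gbp7 was -0.41 (SE 0.15, adjusted p = 0.0379), and the call was lost after scaling (adjusted p = 0.0536) and without any one of 13 libraries (0.052 to 0.0724), all but S217879 replicates 4, 5, 6, 9 and 10 and vehicle replicates 2 and 6. Gbp2 had 10.3 ± 2.48 TPM in S217879 livers and 14.7 ± 4.66 TPM in vehicle livers, a log2 difference of -0.44 (SE 0.22) that did not pass (adjusted p = 0.136). Without vehicle replicate 6, at 4.75 TPM, the Gbp2 difference was -0.60 (adjusted p = 0.00278) and that of Gbp3 was -0.41 (adjusted p = 0.00653), against -0.28 with all libraries (adjusted p = 0.2).

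Among the other 10 effectors and modulators, Ifi27, Parp14, Rtp4, Trim30a and Xaf1 fell. Ifi27, a small protein of mitochondria and nuclear envelope, lay between 69.9 and 159.7 TPM (median 104) in S217879 livers and between 81.1 and 259 TPM (median 142) in vehicle livers. It was below the vehicle median in 9 of 10 S217879 livers, and vehicle replicate 9 stood far above the rest (log2 difference -0.47, SE 0.15, adjusted p = 0.0137). Parp14, an enzyme that attaches single ADP-ribose units, lay between 6.93 and 12.6 TPM (median 9.01) in S217879 livers and between 7.53 and 13.9 TPM (median 12.9) in vehicle livers. All 10 S217879 livers were below the vehicle median (log2 difference -0.40, SE 0.11, adjusted p = 0.00534). Rtp4, a chaperone of membrane receptors, averaged 12.7 ± 2.79 TPM in S217879 livers and 16.2 ± 3.38 TPM in vehicle livers (log2 difference -0.33, adjusted p = 0.0465). Trim30a, a mouse TRIM protein that restrains inflammatory signalling, averaged 6.17 ± 1.43 TPM in S217879 livers and 7.77 ± 1.58 TPM in vehicle livers (log2 difference -0.31, adjusted p = 0.0486). Xaf1, an antagonist of a cell death inhibitor, averaged 3.21 ± 0.82 TPM in S217879 livers and 4.03 ± 0.68 TPM in vehicle livers (log2 difference -0.30, adjusted p = 0.0466). The calls of Trim30a and Xaf1 were lost after median-of-ratios scaling (adjusted p = 0.0714 and 0.0633) and with quantile normalization (0.163 and 0.279), while Rtp4 (0.0415), Parp14 (0.00367) and Ifi27 (0.0154) were also called lower after median-of-ratios scaling. The calls of Rtp4, Trim30a and Xaf1 sat close to the threshold. That of Rtp4 was lost without any one of 14 libraries (adjusted p 0.0551 to 0.0995), of Trim30a without any one of 13 (0.0571 to 0.0999) and of Xaf1 without any one of 15 (0.05 to 0.108). Each held without S217879 replicates 4 or 9 or vehicle replicates 2, 6 or 7, and also without S217879 replicate 5 for Rtp4 and S217879 replicate 3 or vehicle replicate 8 for Trim30a.

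The remaining 5 of this set did not pass. Bst2 encodes tetherin, a membrane protein that holds budding viruses on the cell. It lay between 308 and 499.5 TPM (median 396) in S217879 livers and between 212 and 593 TPM (median 394) in vehicle livers. The groups had nearly the same median, and 5 S217879 livers were on each side of the vehicle median (log2 difference 0.04, SE 0.14, adjusted p = 0.852). Ifi35, a partner of the interferon-induced protein Nmi, averaged 27.4 ± 5.61 TPM in S217879 livers and 26.5 ± 4.49 TPM in vehicle livers (SD, n = 10 each). Its log2 difference was 0.04 (adjusted p = 0.824) as deposited and 0.16 (adjusted p = 0.016) after scaling, where Ifi35 was called higher. The sign of Bst2 and Ifi35 flipped in several alternatives, among them rescaling without the rRNA-type genes (-0.10 for each). Lgals3bp, a secreted glycoprotein that binds galectins, averaged 93.8 ± 11.7 TPM in S217879 livers and 100 ± 19.1 TPM in vehicle livers (adjusted p = 0.684). Parp9, a partner of the ubiquitin ligase Dtx3l whose exons it overlaps on the other strand, averaged 18.8 ± 3.37 TPM in S217879 livers and 22.6 ± 4.31 TPM in vehicle livers (log2 difference -0.25, adjusted p = 0.124). Ifi44 was the lowest of the 33 genes with 1.33 ± 0.42 TPM in S217879 livers and 1.54 ± 0.39 TPM in vehicle livers (adjusted p = 0.337).

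A ratio between 2 genes of the same library does not depend on how the library is scaled, and shows whether the genes changed equally. The ratios given were chosen after their values were seen and carry no test. Usp18 had the lowest log2 difference of the 33 genes and Oasl1 the highest. A separation of ratios with either gene therefore follows in part from the choice. The share of other gene pairs without overlap was not counted. Usp18 relative to the geometric mean of the other 32 genes lay between 0.379 and 0.542 (median 0.511) in S217879 livers and between 0.714 and 0.92 (median 0.845) in vehicle livers. The groups were apart: relative to the rest of the list, Usp18 was lower in each S217879 liver than in any vehicle liver. The ratio of Usp18 to Isg15, the modifier it removes, lay between 0.244 and 0.37 (median 0.306) in S217879 livers and between 0.389 and 0.547 (median 0.484) in vehicle livers, again without overlap. The ratio of Usp18 to Stat2 did overlap, with 0.15 to 0.247 (median 0.2) in S217879 livers and 0.218 to 0.326 (median 0.294) in vehicle livers, and 7 S217879 livers were below every vehicle liver. Oas1a relative to Oasl1 lay between 0.35 and 0.571 (median 0.487) in S217879 livers and between 0.696 and 0.855 (median 0.759) in vehicle livers, also without overlap. Within the ISGF3 complex, Stat2 relative to Irf9 lay between 1.99 and 2.42 (median 2.21) in S217879 livers and between 2.35 and 2.72 (median 2.62) in vehicle livers, with 8 S217879 livers below every vehicle liver. Ifit2 relative to Ifit3 lay between 0.252 and 0.416 (median 0.318) in S217879 livers and between 0.305 and 0.552 (median 0.397) in vehicle livers. For this pair the groups overlapped, with 5 S217879 livers below every vehicle liver.

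**Figure D4:**
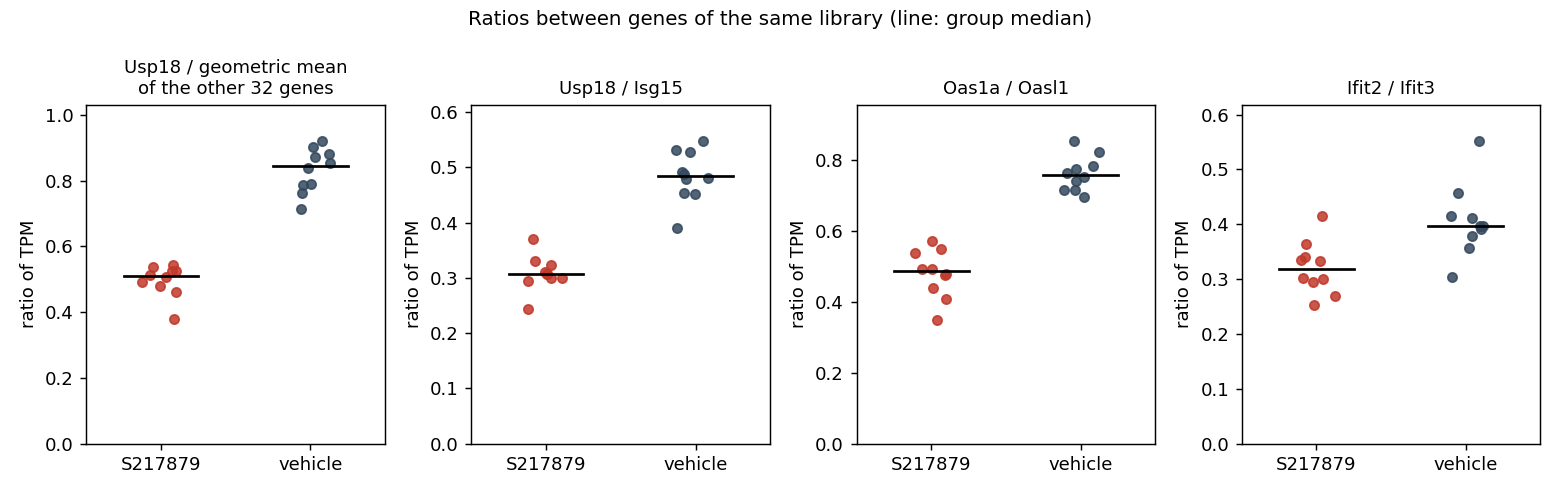
Ratio of TPM between genes of the same library for each liver, S217879 in red and vehicle in dark blue, with the group median as a line. The first 3 ratios do not overlap between the groups (Usp18 to the other 32 genes 0.379 to 0.542 against 0.714 to 0.92), while Ifit2 to Ifit3 overlaps.

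Some animals stood apart across the whole list. As deposited, vehicle replicate 6 was the lowest of its group in all 33 genes, and it is also the library with the largest rRNA-type share. After median-of-ratios scaling it was the lowest vehicle liver in 10 of the 33. Vehicle replicate 7, which had the second largest share, was above the vehicle mean in all 33 genes after scaling and the highest of all 20 livers in 18. Vehicle replicate 9 was the highest of its group in 17 genes as deposited and in 4 after scaling. With vehicle replicate 6 left out, 27 of the 33 genes were called lower, against 38.7% of all genes. The 10 added genes were Ddx58, Ifih1, Zbp1, Irf1, Ifit1, Ifit3, Mx2, Gbp2, Gbp3 and Parp9, with adjusted p from 0.00205 to 0.0184. S217879 replicate 4 was the highest of its group in 27 genes and above the vehicle mean in 28. It also had the lowest rRNA-type share (14.1%) and, as deposited, the highest sums of recruited macrophage (373 TPM) and Kupffer cell markers (567 TPM) in its group. After scaling it was the highest in 16 genes, and held rank 3 of its group for recruited macrophage markers and rank 1 for Kupffer cell markers. The part of these markers in its values was not tested. Without S217879 replicate 4 22 genes were called lower, against 26.5% of all genes, and without S217879 replicate 9 also 22, against 25.2%. S217879 replicate 8 was the lowest of its group in 19 genes as deposited and in 24 after scaling, and without it 11 genes were called, against 21.9% of all genes. With vehicle replicate 6 and S217879 replicate 4 both left out, a choice made after seeing the data, 28 genes were called lower, against 43.9% of all genes. Other treatments of the libraries gave 30 of the 33 lower with array weights (59.9% of all genes), 29 after rescaling without the rRNA-type genes (63.1%), 27 without vehicle replicates 6 and 7 (54.4%), 11 with an exact Wilcoxon rank-sum test (24.1%) and 9 with no filter on low values (11.9%). The summed TPM of the 33 genes lay between 685 and 1190 (median 866) in S217879 livers and between 558 and 1430 (median 1016) in vehicle livers, so the groups overlapped on the total. Bst2, Ifi27 and Lgals3bp, with vehicle means of 401, 152 and 100 TPM, weigh most in this sum. It therefore says little about the genes of lower level.

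Levels, which TPM allows to be set between genes per length, covered a wide range. In vehicle livers Bst2 averaged 401 TPM, Ifi27 152 TPM, Lgals3bp 100 TPM and Stat2 36.5 TPM, down to 1.54 TPM for Ifi44. Of the 32 pairs of neighbours in this order 31 overlapped between animals, and only Lgals3bp and the next lower gene, Stat2, were apart. This overlap sets values of different animals side by side and does not show the order within a library. In every vehicle library Bst2 was above Ifi27 (211.5 and 81.1 TPM in replicate 6), and Ifi27 was above Lgals3bp. The order within libraries was not counted for the other pairs. Of the 3 genes of highest level Ifi27 was called, and Bst2 and Lgals3bp were not.

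Genes upstream of this response were examined as lists. Of 21 interferon genes 12 were listed at 0 in every library, including Ifnb1, and 0 reached the level for testing. The 2 of highest mean were Ifnk, with 0.248 to 0.723 TPM in S217879 livers and 0.398 to 1.117 TPM in vehicle livers, and Ifng, with 0.125 ± 0.088 TPM in S217879 livers and 0.164 ± 0.101 TPM in vehicle livers (SD, n = 10 each). At an unknown depth such values are near the detection limit and were not tested. Of 9 receptor and kinase genes 5 fell and 0 rose, with a median of -0.32, against -0.12 for all genes, of which 23.5% were called lower and 6.07% higher. Ifngr1, the ligand-binding chain of the interferon gamma receptor, lay between 12.2 and 20.1 TPM in S217879 livers and between 15.04 and 27.3 TPM in vehicle livers (log2 difference -0.56, SE 0.11, adjusted p = 1.46e-04). Il10rb, a chain shared by the interferon lambda and interleukin 10 receptors, averaged 7.01 ± 0.91 TPM in S217879 livers and 9.70 ± 1.64 TPM in vehicle livers (log2 difference -0.43, adjusted p = 0.00143). Ifnar1 lay between 11.8 and 14.2 TPM in S217879 livers and between 11.2 and 20.4 TPM in vehicle livers (log2 difference -0.33, adjusted p = 0.0129). Its partner Ifnar2 averaged 35.4 ± 5.11 TPM in S217879 livers and 33.6 ± 6.04 TPM in vehicle livers (log2 difference 0.08, adjusted p = 0.639), and was called higher after scaling (adjusted p = 0.00317).

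Of 16 other sensing and adaptor genes 7 fell and 0 rose (median -0.28). Irf5, a factor downstream of Toll-like receptors in macrophages, averaged 6.94 ± 0.93 TPM in S217879 livers and 12.1 ± 2.32 TPM in vehicle livers (log2 difference -0.74), and Tlr9, a receptor for bacterial DNA, had a log2 difference of -0.54. Of 10 genes that restrain the pathway 4 fell and 0 rose (median -0.28), led by Nlrc5 (-0.53), which also activates class I antigen presentation, and Samhd1 (-0.45), which depletes nucleotides. Trex1, of the same list, was listed at 0 in every library; its exons overlap Atrip on the same strand. Of 47 further interferon-stimulated genes 20 fell and 0 rose (median -0.25). In that list the membrane protein Ifitm2, which blocks virus fusion, averaged 164 ± 34.2 TPM in S217879 livers and 273 ± 54.0 TPM in vehicle livers (log2 difference -0.73), and the ubiquitin ligase Rnf213 had a log2 difference of -0.62. At an unadjusted p under 0.05 limma gave 1 higher gene in these pathway lists, the ribonuclease Isg20, named after its values were seen. It averaged 4.91 ± 0.65 TPM in S217879 livers and 4.13 ± 0.72 TPM in vehicle livers, with a log2 difference of 0.23 (adjusted p = 0.0811) as deposited and 0.34 (adjusted p = 1.66e-04) after scaling. Of 20 interferon gamma targets 5 fell and 0 rose (median -0.23), a share of 25.0% that is close to the 23.5% of all tested genes, among them Ciita, the master regulator of class II genes (-0.59), and the adhesion molecule Icam1 (-0.59). Of the 4 enzymes of Isg15 conjugation 3 fell and 0 rose (median -0.35), among them Herc6 (-0.58), the mouse ligase for Isg15, and Ube2l6 (-0.37), its conjugating enzyme. Herc6 and Ube2l6 were already counted among the further interferon-stimulated genes, so the conjugation counts are not separate from those of that list. After scaling the counts of lower and higher genes were 5 and 1 for receptors and kinases, 11 and 1 for sensing genes, 5 and 1 for restraint, 21 and 4 for the further stimulated genes, 4 and 0 for interferon gamma targets and 3 and 0 for conjugation, against 27.1% lower and 26.6% higher over all genes. For interferon gamma targets the lower share on that scale was below that of all genes. Adjusted p in limma was at most 0.0192 for each of Irf5, Tlr9, Nlrc5, Samhd1, Ifitm2, Rnf213, Ciita, Icam1, Herc6 and Ube2l6.

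**Figure D5:**
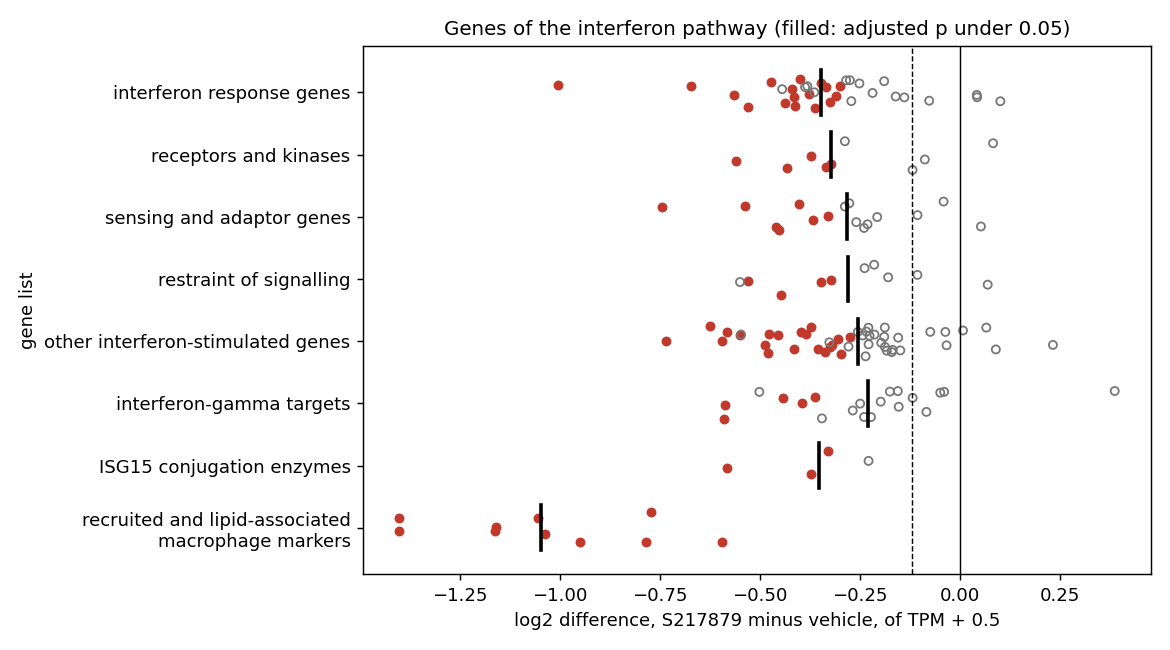
Log2 difference (S217879 minus vehicle, of TPM + 0.5) of each tested gene by list, filled red where adjusted p is under 0.05, with the list median as a black bar and the median of all tested genes (-0.12) as a dashed line. The interferon lists have medians between -0.35 and -0.23, and the 10 markers of recruited and lipid-associated macrophages have a median of -1.05.

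Markers of immune and other liver cells were counted in the same test, in which 23.5% of all genes were lower and 6.07% higher; in lists this short, 1 lower gene is close to that share. All 10 tested markers of recruited and lipid-associated macrophages (of 11 listed) fell, and their summed level lay between 180 and 373 TPM (median 238) in S217879 livers and between 368 and 719 TPM (median 498) in vehicle livers. Of 7 Kupffer cell markers 1 fell, with sums between 253 and 567 TPM (median 378) in S217879 livers and between 291 and 706 TPM (median 530) in vehicle livers. Of 8 stellate cell markers 7 fell, with sums between 247 and 450 TPM in S217879 livers and between 282 and 508 TPM in vehicle livers. Of 8 sinusoidal endothelial markers 0 fell and 4 rose, with sums between 159.5 and 205 TPM in S217879 livers and between 82.0 and 181 TPM in vehicle livers. Of 8 hepatocyte markers 1 fell and 2 rose, with sums between 38070 and 59070 TPM in S217879 livers and between 29220 and 67210 TPM in vehicle livers. Of the 5 tested markers of T, NK and B cells (of 12) 0 passed in either direction, and 0 at an unadjusted p under 0.05 in limma, with sums between 22.4 and 179 TPM in S217879 livers and between 27.8 and 467 TPM in vehicle livers. Of the 3 tested markers of plasmacytoid dendritic cells (of 7), specialised producers of type I interferon, 1 fell, with sums between 102 and 325 TPM in S217879 livers and between 100.4 and 194 TPM in vehicle livers. Of the 3 tested neutrophil markers (of 7) 1 fell, with sums between 5.38 and 20.1 TPM in S217879 livers and between 8.37 and 24.7 TPM in vehicle livers. Of the 5 tested cholangiocyte markers (of 6) 2 fell, with sums between 90.1 and 246 TPM in S217879 livers and between 179 and 469.6 TPM in vehicle livers. Spp1 is listed both here and among the recruited and lipid-associated macrophage markers, so the sums of these lists share it. After median-of-ratios scaling the counts of these lists were the same, except that 7 of the 8 sinusoidal endothelial markers were called higher (26.6% of all genes). No listed marker of these cell types was at 0 in every library. In whole liver, fewer cells of a type and less RNA of a gene per cell cannot be told apart, and the part of these cell types in the lower interferon response genes was not tested.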

How the data were processed

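Liver RNA of 20 mice was sequenced, 10 per group, with groups taken from the treatment label. A kit for fatty tissue gave total RNA, from which stranded libraries of polyA-captured mRNA were made, per the labels' protocols. The submitters' processing notes name the build GRCm38 and the tools STAR 2.5.2b, Subread 1.5.2, featureCounts and Trimmomatic 0.36. The sources used here do not state what each tool did, the annotation, strand use or the handling of multi-mapping reads. The deposited values are a per-gene signal in TPM, made by the authors for 49315 genes. TPM keeps no depth, so the spread between libraries holds animal differences and counting and library noise, which cannot be told apart.

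From these values, genes averaging 1 TPM or more (13401) were compared as log2(TPM + 0.5) with limma 3.58.1 in R 4.3.3 (eBayes with trend and robust, group as the only term). P-values were adjusted by Benjamini-Hochberg over all 13401 genes. Data were simulated with the same mean and spread of each gene. The share of changed genes recovered was 62.1% of 66 at a log2 change of 0.5, 98.5% of 67 at 1 and 100% of 67 at 2. Of 13201 unchanged genes 4 were called. Far fewer genes were changed here than the 3151 lower and 813 higher calls in the real data. The Benjamini-Hochberg cut depends on that number, so these values do not carry over directly to the real test. Each gene was drawn independently, without shifts shared across a library, so these values do not cover errors from such shifts in the real libraries. Symbols matched 48970 identifiers. Coordinates and exon overlaps are from GENCODE M21 (GRCm38), and promoter windows from RefSeq (GRCm38.p6).

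The 33 genes and the lists were chosen with earlier results of these data known. All 33 are given. Of each pathway list the 2 called genes with the largest difference in each direction are named (the 2 of highest mean where none was called), with Ifnar1, Ifnar2, Ifngr1, Ifnb1 and Ifng in any case; 1 further gene of this rule is not reported here. Trex1, the one gene of its list at 0, and Isg20 are named after their values were seen. Alternatives were pseudocounts of 0.1 and 1, a minimum mean of 0.1 or 5 TPM or none, median-of-ratios scaling, quantile normalization, array weights, rescaling without the 4 rRNA-type genes (Gm23935, Gm24270, Gm42418 and Mir6236), eBayes with neither trend nor robust, an exact two-sided Wilcoxon rank-sum test, and leaving out each library, or vehicle replicates 6 and 7 together. The 2 alternatives added after seeing the data left out vehicle replicate 6 with S217879 replicate 4, and used median-of-ratios scaling without vehicle replicates 6 and 7.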

Additional observations from a re-analysis of the deposited data

Results flagged for a closer look

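Each gene was examined in each group for a single liver far from the others, by the gap to its nearest neighbour over the group's whole range, read against Dixon's critical value. Of 66 groups 13 held such a liver. Chance gives about 1 in 20 for a single group. The 66 groups share the same 20 libraries and are not independent, so the count was not tested against chance.

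In S217879 replicate 4, 8 genes stood above the rest of the S217879 livers. Ifit2 was at 7.48 TPM, with the next liver at 4.47 TPM. Ifih1 was at 14.2 TPM (next 11.1), Ifit3 at 24.8 TPM (next 17.3) and Ifi35 at 41.3 TPM (next 30.2). Oas1a was at 7.99 TPM (next 6.01), Oas2 at 5.69 TPM (next 4.06), Ifi44 at 2.42 TPM (next 1.57) and Trim30a at 9.77 TPM (next 7.03).

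In vehicle replicate 6, 3 genes stood below the rest of the vehicle livers. Irf1 was at 12.4 TPM (next 22.3), Stat2 at 22.1 TPM (next 32.4) and Parp14 at 7.53 TPM (next 11.3). In vehicle replicate 9, 2 genes stood above the others, Irf7 at 40.4 TPM (next 24.9) and Ifi27 at 259 TPM (next 175).

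These are values as deposited. After median-of-ratios scaling 12 of the 13 were still the highest or lowest of their group, Parp14 in vehicle replicate 6 was not, and 2 still passed the critical value, Ifit2 (6.49, next 5.06) and Ifi35 (35.8, next 29.1) in S217879 replicate 4. Stat2 in vehicle replicate 6 was at 32.2 on that scale, with the next vehicle liver at 32.6.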

How the results depend on the processing

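Depth is unknown, and the scale of the libraries limits every comparison. Under all 33 alternatives that gave one, the median log2 difference of the 33 genes moved by less than 0.274, its spread between animals (SD). That SD describes single animals and is not the error of a difference between group means. The median was lowest with array weights (-0.52) and highest with quantile normalization (-0.19). With single libraries left out it lay between -0.43 and -0.31. The 17 genes called lower became 30 with array weights, 29 after rescaling that omits the rRNA-type models, 28 without vehicle replicate 6 and S217879 replicate 4, 27 without vehicle replicates 6 and 7, 11 with the Wilcoxon test and 9 with no filter, where 36279 genes were tested. Leaving out 1 library gave 11 to 27. Genes called higher were 0 of 33 except 1 with median-of-ratios scaling and 2 with that scaling without vehicle replicates 6 and 7, and 0 to 0 when single libraries were left out. Over all genes, lower calls (3151) were 8023 with array weights, 1642 at a minimum of 5 TPM, 9113 after rescaling that omits the rRNA-type models, 5894 without vehicle replicate 6 and S217879 replicate 4, 7307 without vehicle replicates 6 and 7, and 2637 to 5194 without 1 library. Higher calls (813) were 3561 with median-of-ratios scaling, 3243 with it and without vehicle replicates 6 and 7, 3536 with quantile normalization, and 709 to 877 without 1 library. The cause of these moves was not tested.

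Stat2, Usp18, Ifit2, Oas1a, Oas2, Mx1 and Parp14 were called lower under each alternative that kept them. The share of all tested genes called lower under each alternative was not counted. Rsad2 was lost with quantile normalization (adjusted p = 0.0896), Oasl2 with the Wilcoxon test (0.0665), Ifi27 and Irf9 with no filter (0.0558 and 0.0546), and Dhx58 in 3 alternatives (0.0612 to 0.0772). Single genes changed sign 19 times, always near 0 on the log2 scale. Oasl1 was -0.025 with array weights, -0.036 after rescaling that omits the rRNA-type models and -0.045 without vehicle replicate 6 and S217879 replicate 4. Bst2 was -0.11, -0.10 and -0.088 under those settings, -0.092 with quantile normalization and -0.092 without vehicle replicates 6 and 7. Ifi35 was -0.092, -0.098 and -0.094 under the first 3 settings and -0.075 without vehicle replicates 6 and 7. When single libraries were left out Bst2 ranged between -0.055 and 0.11 and Ifi35 between -0.027 and 0.078, below 0 without vehicle replicate 6 for both and without S217879 replicate 4 for Ifi35 (-0.024). Lgals3bp was 0.040 with median-of-ratios scaling, and on that scale without vehicle replicates 6 and 7 Lgals3bp was 0.058 and Irf7 0.015. Ifi44 was 0.037 with quantile normalization. No paired analysis was possible because each animal has its own number in the labels and the groups share none.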
